A study of Mus musculus with 9 samples.

Results

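The 30 genes described here are the histone genes and histone chaperone genes among the 12393 genes that the arrays measured with a probe set of 1 gene symbol. They comprise 20 genes whose platform symbol is that of a histone and 10 of the 12 chaperone genes chosen by name. The other 2 chaperone genes, Chaf1a and Ssrp1, are not analysed here. Where a gene had several probe sets, the brightest on average stood for it. The rule for members uses gene symbols and no expression change, but earlier results of these data were known when it was set. By role they fall into 5 linker histones, 7 core histones with cluster names, 2 testis-type H2A variants, 6 replacement variants, 6 chaperones of H3 and H4, and 4 chaperones of H2A and H2B or of broader action.

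The study measured RNA of splenic dendritic cells on 9 one-colour Affymetrix arrays. All donor mice were 6 to 8 weeks old and carried B16 melanoma tumours that expressed Flt3L, the growth factor that expands dendritic cells, and the cells of every group were enriched on magnetic beads for CD11c. The groups were 3 untreated arrays, 3 arrays of cells treated with TSA (trichostatin A) and 3 arrays of cells treated with butyrate. The labels give no strain, dose or duration and do not say whether replicates came from separate mice, so p-values measure the spread between these samples, which may be technical. Both compounds inhibit histone deacetylases, the enzymes that remove acetyl groups from histone tails; TSA carries a hydroxamic acid group, and butyrate is a small fatty acid. Since the doses are not known, values of the treatments are set side by side as these samples gave them.

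DNA is wound around an octamer of the core histones H2A, H2B, H3 and H4, and a linker histone, H1, binds where the DNA enters and leaves this particle. Most core and linker histones are made in S phase from clustered genes whose mRNAs end in a stem-loop in place of a poly-A tail. Replacement variants such as H2A.Z, macroH2A and H3.3 are made throughout the cell cycle from genes outside the clusters, with polyadenylated mRNAs, and chaperones carry histones to DNA and take them off again. The primer used to copy the RNA is not given in the labels, and an array signal of a cluster gene depends on whether its RNA was copied. Cluster genes of a family are near-identical in sequence, so the identity of the gene behind a histone probe set is uncertain throughout.

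On the deposited scale, more histone and chaperone genes rose than fell with each treatment. With TSA, 16 of the 30 rose, 2 fell and 12 were not called, where 26.3% of all genes rose and 21.0% fell (limma, Benjamini-Hochberg adjusted p under 0.05). With butyrate, 19 rose, 2 fell and 9 were not called, against 33.6% and 24.8% of all genes. The median change was 0.26 with TSA and 0.30 with butyrate (log2), beside 0.03 and 0.09 over all genes. A rise of at least 0.5 was called for 8 of the 30 with TSA and for 10 with butyrate, against 10.0% and 10.5% of all genes, and no member fell by that much, where 10.1% and 12.9% of all genes did. Of 13 members at or below the median gene level, 8 rose and 0 fell with butyrate, where 30% and 11% of such genes did. Of the 17 members above it, 11 rose and 2 fell, where 37.2% and 38.7% of such genes did. The H1f2 linker histone, the H3 genes H3c4 and H3c7, the H2A gene H2aw, the chaperone Chaf1b and the variant H2az2 reached the largest changes with either treatment. Both comparisons use the same 3 untreated arrays and so share their error. In these bulk samples more cells of a kind and more RNA per cell cannot be told apart.

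With butyrate, whether rises or falls prevailed depended on the scale. The hybridization spike-ins, bacterial transcripts that the Affymetrix protocol adds to each hybridization mix, read 10.57 ± 0.08 on the untreated, 10.61 ± 0.03 on the TSA and 10.99 ± 0.06 on the butyrate arrays (log2, SD, n = 3). Each butyrate difference is 0.42 lower on the scale of these spike-ins and 0.31 lower on that of the poly-A spike-ins, which are added to the RNA before labelling, and directions are on the deposited scale where no scale is named. Set to the hybridization spike-ins, 9 members rose and 12 fell with butyrate, while 7.48% of all genes rose and 68.1% fell, and the members' median change was -0.12. The poly-A spike-ins read 8.13 ± 0.27 untreated, 8.13 ± 0.14 with TSA and 8.44 ± 0.09 with butyrate (log2, SD, n = 3). This spread enters every gene on their scale: the standard error of H1f2 went from 0.05 to 0.18, and all members shared the latter. With TSA that scale moved the differences by only 0.005, so calls lost there go with the larger standard error. Set to the poly-A spike-ins, 8 rose and 5 fell with butyrate, with 5.58% and 28.5% of all genes. The 5 that fell there were H2az1, Set, H2ac19, Daxx and Nasp, and all 5 also fell on the hybridization scale. The spike-ins of TSA and untreated arrays lay close, and there the members' counts were 14 higher and 2 lower on the hybridization scale, with 20.3% and 19.9% of all genes, and 9 higher and 0 lower on the poly-A scale, with 11.5% of all genes in each direction. Over all genes, rises made up 55.6% of calls with TSA on the deposited scale, and on the poly-A scale 1427 genes rose and 1426 fell; with butyrate rises made up 57.5%, and 9.90% and 16.4% on the spike-in scales. Called and in the same direction under every alternative that measured them were 9 rises with TSA (H1f2, H2aj, H2aw, H3c4, H3c7, H2ax, H2az2, Asf1a and Chaf1b). With butyrate this held for the rises of 8 of these, without Asf1a, and for the falls of H2az1 and Set.

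**Figure D1:**
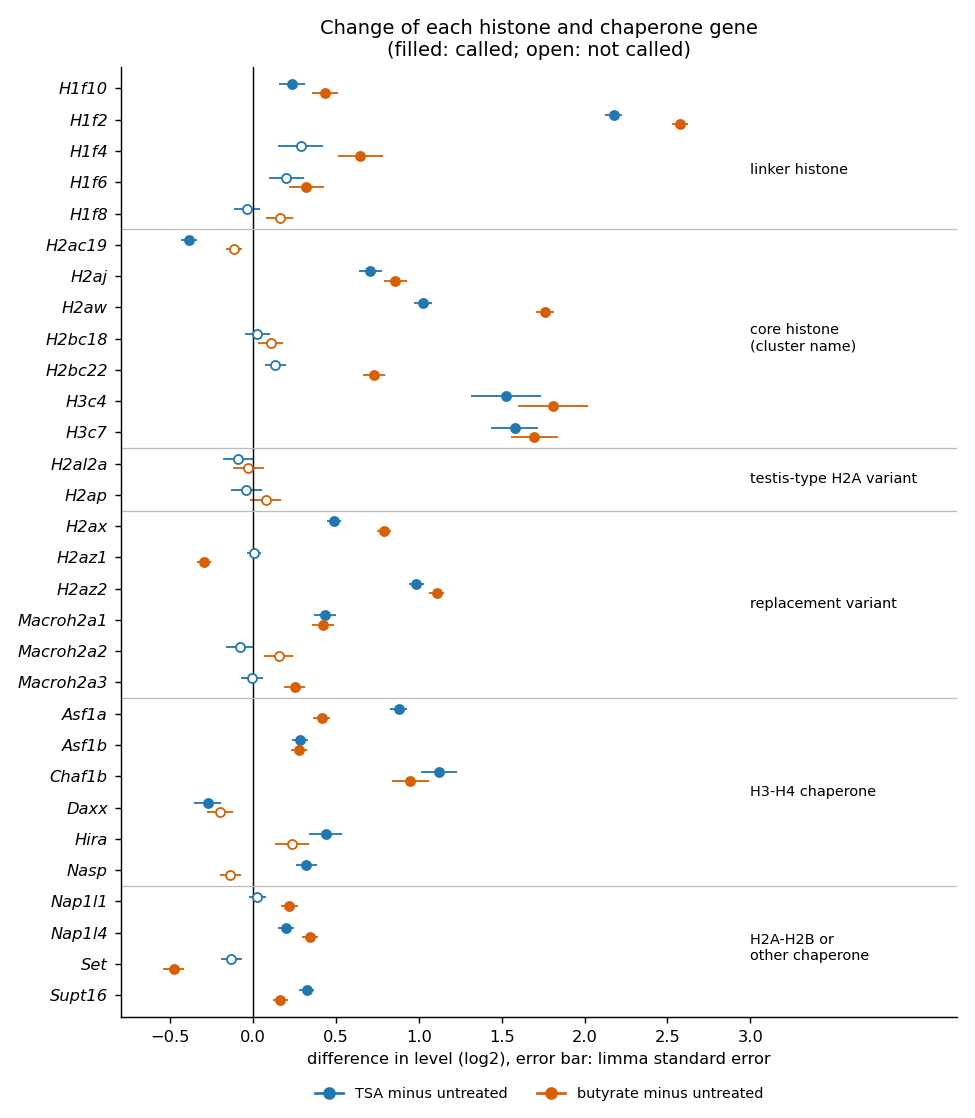
Difference in level (log2) of each of the 30 genes, TSA minus untreated in blue and butyrate minus untreated in orange, with the limma standard error as bar and filled points for called changes. H1f2 lay farthest to the right at 2.17 and 2.58, and Set was lowest with butyrate at -0.48.

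Of the 5 linker histones, 2 rose with TSA and 4 with butyrate, and none fell. Over all genes 26.3% rose and 21.0% fell with TSA, and 33.6% and 24.8% with butyrate. H1f2, which encodes the H1.2 linker histone, had the largest change of all members. Its level was 11.04, 10.91 and 10.98 on the untreated arrays, 13.18, 13.15 and 13.12 on the TSA arrays and 13.52, 13.55 and 13.59 on the butyrate arrays (log2). The 3 groups did not overlap, and on the deposited scale every butyrate array was above every TSA array. That difference of H1f2, 0.40, fell to as little as 0.02 on the spike-in scales and was called on neither. The rise was 2.17 ± 0.05 (SE) with TSA, or 4.52-fold (adjusted p = 1.3e-09), and 2.58 ± 0.05 with butyrate, or 5.96-fold (adjusted p = 3.7e-10). A second bright probe set of H1f2 rose by 2.19 and 2.75, while another, dimmer probe set differed by 0.19 with TSA (adjusted p = 0.0692) and rose by 0.37 with butyrate.

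H1f4, which encodes the H1.4 linker histone, gave levels near the lower end of the scale, where RMA understates change; the 25th percentile of gene levels was 5.29. It read 4.20, 4.27 and 4.29 untreated, 4.87, 4.28 and 4.46 with TSA and 5.08, 4.78 and 4.84 with butyrate. The butyrate arrays were above all untreated arrays, and the TSA arrays overlapped both other groups. The difference was 0.29 ± 0.13 with TSA (adjusted p = 0.111) and 0.65 ± 0.13 with butyrate (adjusted p = 0.00194), which became 0.23 and 0.34, neither called, on the hybridization and poly-A spike-in scales. H1f10, a linker histone gene outside the clusters, rose by 0.24 with TSA, where 1 untreated array overlapped the treated ones, and by 0.43 with butyrate (0.02 and 0.12 on the spike-in scales, not called). Its TSA change was called on neither spike-in scale, nor without untreated array 1 or 2 or TSA array 2 or 3. The testis H1f6 and the oocyte H1f8 were dim: H1f6 differed by 0.20 with TSA and rose by 0.32 with butyrate (-0.10 and 0.01 on the spike-in scales, not called, nor called without any 1 of 4 arrays, untreated 2 or 3 or butyrate 1 or 2), and H1f8 was not called. After a further quantile normalization the butyrate difference of H1f6 was 0.24 and was not called (limma, adjusted p = 0.0769).

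The promoter windows of H1f2 and H1f4, the H1 genes with the largest butyrate rises, are printed to show the elements that histone gene promoters are known for. They are RefSeq windows of GRCm38.p6, 250 bases before to 50 bases after the annotated start, 5′ to 3′ along the gene, at chr13:23738557-23738856 (plus strand) for H1f2 and chr13:23622509-23622808 (minus strand) for H1f4. Capitals mark matches on either strand to CCAAT or TATAAA, to the H1 box AAACACA or the octamer ATTTGCAT, and to the E2F-type motifs TTTGGCGC, TTTCGCGC, TTTCCCGC and TTTGCCGC.
H1f2: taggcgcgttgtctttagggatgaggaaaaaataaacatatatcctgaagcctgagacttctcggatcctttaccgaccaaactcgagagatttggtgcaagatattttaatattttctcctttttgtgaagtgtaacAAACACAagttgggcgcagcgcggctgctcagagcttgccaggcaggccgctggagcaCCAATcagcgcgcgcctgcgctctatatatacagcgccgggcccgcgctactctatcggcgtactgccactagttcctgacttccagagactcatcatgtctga
H1f4: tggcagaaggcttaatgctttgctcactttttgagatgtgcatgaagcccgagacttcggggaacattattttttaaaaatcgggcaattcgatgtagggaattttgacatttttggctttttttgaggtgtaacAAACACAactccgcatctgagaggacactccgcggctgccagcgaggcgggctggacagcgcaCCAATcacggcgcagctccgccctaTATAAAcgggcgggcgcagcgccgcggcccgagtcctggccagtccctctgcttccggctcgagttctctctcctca
Both windows held an H1 box, starting at -112 in H1f2 and at -115 in H1f4 from the annotated start, and a CCAAT, at -54 and -52. The H1 box was in 3 of the 17 windows of histone members (H1f2, H1f4 and H1f6) and in 7.18% of all 32851 windows. TATAAA, at -27 in H1f4, had no match in the H1f2 window. A match is a description of letters and not of binding, and the file of windows held 26 of the 30 members.

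Of the 7 core histones with cluster names, 4 rose and 1 fell with TSA, and 5 rose with butyrate. The shares of all genes were 26.3% and 21.0% with TSA, and 33.6% and 24.8% with butyrate. Both H3 genes were among those with the largest rises. H3c4 read 6.00, 5.75 and 5.11 untreated, 7.48, 7.03 and 6.92 with TSA and 7.40, 7.29 and 7.61 with butyrate. All treated arrays were above all untreated arrays, and the third untreated array was the lowest. The rise of H3c4 was 1.53 ± 0.21 with TSA (2.88-fold, adjusted p = 0.000142) and 1.81 ± 0.21 with butyrate (3.51-fold, adjusted p = 3.55e-05). H3c7 read 6.22, 5.98 and 5.69 untreated, 7.69, 7.66 and 7.27 with TSA and 7.63, 7.79 and 7.56 with butyrate. Its rises were 1.58 ± 0.14 (2.99-fold, adjusted p = 6.09e-06) and 1.70 ± 0.14 (3.24-fold, adjusted p = 2.91e-06), with no overlap of treated and untreated arrays. Butyrate and TSA arrays overlapped for both H3 genes, and their difference was 0.28 for H3c4 (adjusted p = 0.325) and 0.12 for H3c7 (adjusted p = 0.552). A further probe set annotated to both of these genes and to other H3 genes fell with each treatment and is described with the shared probe sets.

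H2aw, a core H2A gene of a small histone cluster, rose with both treatments. Its level was 9.02, 8.98 and 8.87 untreated, 9.98, 10.00 and 9.96 with TSA and 10.67, 10.70 and 10.79 with butyrate. The 3 groups stood apart, with replicates of a group closer to each other than to any array of another group. The rise was 1.02 ± 0.06 with TSA (2.03-fold, adjusted p = 1.5e-07) and 1.76 ± 0.06 with butyrate (3.38-fold, adjusted p = 3.83e-09), and the butyrate arrays were 0.74 above the TSA arrays (adjusted p = 1.6e-05). This difference between the treatments was not called on the poly-A spike-in scale (limma, adjusted p = 0.0602). H2aj encodes H2A.J, which by its biology is a variant made outside the clusters, and is counted here with the core names. It read 10.57, 10.34 and 10.54 untreated, 11.19, 11.26 and 11.13 with TSA and 11.33, 11.39 and 11.32 with butyrate. Its rises were 0.71 ± 0.07 (1.63-fold, adjusted p = 8.12e-06) and 0.86 ± 0.07 (1.81-fold, adjusted p = 1.58e-06), and treated and untreated arrays did not overlap.

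H2bc22, a core H2B gene, rose with butyrate and was not called with TSA. It read 5.33, 5.39 and 5.44 untreated, 5.51, 5.57 and 5.47 with TSA and 6.22, 6.12 and 6.00 with butyrate. The butyrate arrays were above all others, by 0.73 ± 0.06 over untreated (1.66-fold, adjusted p = 3.63e-06) and by 0.60 over TSA (adjusted p = 0.000101), while the TSA difference was 0.14 (adjusted p = 0.114). On the poly-A spike-in scale the butyrate rise of H2bc22 was 0.42 and was not called (adjusted p = 0.0532). Its difference between the treatments was not called there either (limma, adjusted p = 0.216). H2ac19, an H2A gene, was the core gene that fell with TSA, from 9.47, 9.47 and 9.53 to 9.11, 9.04 and 9.16, with 9.41, 9.37 and 9.35 with butyrate. All TSA arrays were below all others. The TSA fall was -0.39 ± 0.05 (adjusted p = 7.42e-05) and the butyrate difference was -0.11 (adjusted p = 0.071). The H2B gene H2bc18 was not called with either treatment.

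The windows of H2aw and H3c4 are printed for the largest rises of an H2A and an H3 gene, at chr11:58954435-58954734 and chr13:23575513-23575812, both on the plus strand, with capitals as above.
H2aw: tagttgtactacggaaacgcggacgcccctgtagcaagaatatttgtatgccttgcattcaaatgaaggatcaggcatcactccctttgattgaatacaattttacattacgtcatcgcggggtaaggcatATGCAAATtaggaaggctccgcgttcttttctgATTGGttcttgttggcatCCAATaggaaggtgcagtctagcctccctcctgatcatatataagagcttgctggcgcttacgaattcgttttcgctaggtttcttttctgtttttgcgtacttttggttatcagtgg
H3c4: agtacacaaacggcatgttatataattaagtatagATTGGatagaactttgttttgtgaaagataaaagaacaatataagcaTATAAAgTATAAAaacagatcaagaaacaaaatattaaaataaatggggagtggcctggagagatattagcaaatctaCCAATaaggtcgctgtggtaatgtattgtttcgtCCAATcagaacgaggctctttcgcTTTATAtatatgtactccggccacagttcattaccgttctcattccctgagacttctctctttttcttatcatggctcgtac
H2aw held an octamer match at -119 and CCAAT matches at -86 and -68, and no TATAAA. H3c4 held CCAAT matches at -215, -90 and -56 and TATAAA matches at -168, -161 and -32. A CCAAT on either strand was in 14 of the 17 histone windows, beside 37.4% of all windows, and at 2 or more places in 10 of 17, beside 11.7%. TATAAA was in 3 of 17, beside 13.6%, the octamer in 2 of 17, beside 1.74%, and an E2F-type motif in 1 of 17 (H2bc22), beside 2.26%. The GC box GGGCGG, which is not capitalised, was in 8 of 17 histone windows, beside 35.7%. In the 12 windows of 9 chaperone members, CCAAT was in 7 and the GC box in 10. Daxx and Set had more than 1 window each, and those of Daxx overlap, so a gene can count more than once. By gene, CCAAT was found for Asf1a, Asf1b, Daxx, Nap1l1, Nasp and Set. The GC box was found for Asf1a, Asf1b, Chaf1b, Daxx, Hira, Set and Supt16.

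**Figure D2:**
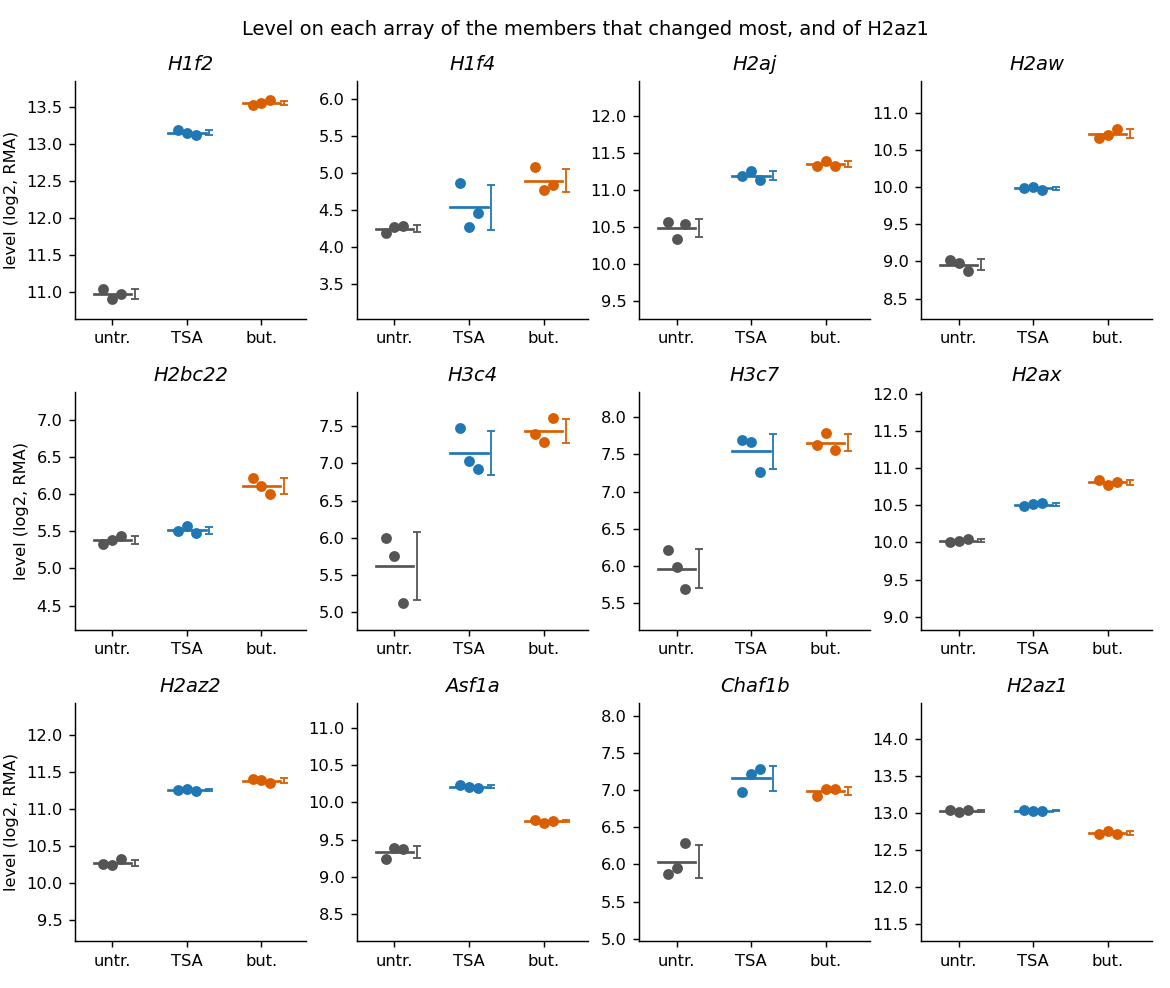
Level of each array (points, log2 RMA) with the group mean (line) and SD (bar) for the members called with a change of at least 0.5 with either treatment, and for H2az1; every panel spans at least 3.2 log2 units. H1f2, H2aw and H2az2 separated by group with little spread within a group, and the untreated arrays of H3c4 spread most, from 5.11 to 6.00.

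Probe sets annotated to several symbols, a histone among them, can be given by family only. Of 23 such probe sets, 9 rose and 1 fell with TSA, where 23.5% and 19.4% of all 22626 probe sets did, and 13 rose and 2 fell with butyrate, where 30.4% and 23.2% did. All 4 H2B probe sets rose with butyrate, by 0.95 to 2.05, and 3 of the 4 rose with TSA. The H2B probe set with the largest change, shared by 2 symbols, read 7.83, 7.86 and 7.88 untreated, 9.17, 9.13 and 9.20 with TSA and 9.99, 9.90 and 9.84 with butyrate. Its groups did not overlap, and it rose by 1.31 with TSA (adjusted p = 5.7e-08) and 2.05 with butyrate (adjusted p = 2.88e-09). An H2B probe set shared by 3 symbols separated the treatments: it read 10.03, 9.89 and 9.95 untreated, 10.02, 10.02 and 10.02 with TSA and 11.02, 11.10 and 11.01 with butyrate. The untreated and TSA arrays overlapped, at a difference of 0.06 (adjusted p = 0.388), and the butyrate arrays were 1.09 above the untreated ones (adjusted p = 1.01e-07).

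The H4 family, for which no probe set named 1 gene, had 4 shared probe sets, of which 2 rose with TSA and 3 with butyrate. Its 2 brighter probe sets rose by 0.50 and 0.59 with TSA and by 1.14 and 1.28 with butyrate. Among 4 shared H3 probe sets, 1 rose with TSA, by 0.66, and 3 with butyrate, by 0.45, 0.47 and 1.07. The other H3 probe set, shared by 8 symbols, fell, from 7.05, 6.93 and 6.62 to 5.59, 5.66 and 5.77 with TSA and 5.74, 5.62 and 5.75 with butyrate. That change, -1.19 and -1.16, had the opposite sign to the changes of H3c4 and H3c7, whose symbols are among its 8, and the untreated arrays were all above the treated ones. The 1 probe set shared by core H2A symbols alone, untreated level 13.09, was not called, and another shared by H2aw and a non-histone symbol rose by 0.79 and 1.43. The H2A.L and macroH2A probe sets were not called. Of 5 shared probe sets of the H3.3 type, the replacement form of H3, 2 rose with both treatments (0.61 and 0.46 with TSA, 1.19 and 0.80 with butyrate) and 3 were not called.

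**Figure D3:**
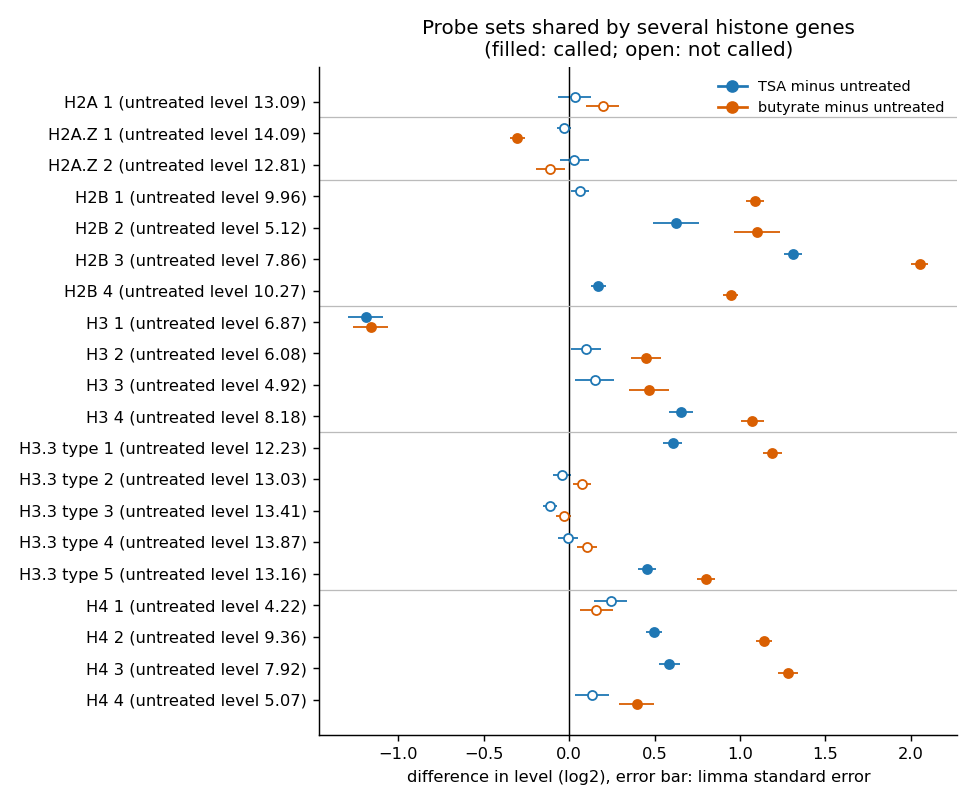
Difference in level (log2) of the 20 probe sets annotated to several symbols and grouped under H2A, H2A.Z, H2B, H3, H3.3 or H4. Bars are limma standard errors, filled points are called changes, and the untreated level is beside each name. All H2B probe sets rose with butyrate, and 1 H3 probe set fell with both treatments, to -1.19 and -1.16.

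The 6 replacement variants included 3 that rose with TSA and 4 that rose and 1 that fell with butyrate. Over all genes 26.3% rose and 21.0% fell with TSA, and 33.6% and 24.8% with butyrate. H2ax encodes H2A.X, the variant that is phosphorylated at DNA breaks. It read 10.00, 10.02 and 10.04 untreated, 10.48, 10.51 and 10.52 with TSA and 10.85, 10.78 and 10.81 with butyrate. The groups did not overlap, and H2ax rose by 0.49 ± 0.04 with TSA (1.40-fold, adjusted p = 5.62e-06) and 0.79 ± 0.04 with butyrate (1.73-fold, adjusted p = 1.29e-07). Macroh2a1, a large H2A variant with a macro domain, rose by 0.43 ± 0.06 and 0.42 ± 0.06, but on the spike-in scales its butyrate change was 0.005 and 0.11, neither called. Macroh2a2 was not called, and Macroh2a3, which was dim, rose by 0.25 with butyrate but differed by -0.17 and -0.06, not called, on the spike-in scales. After a further quantile normalization the butyrate difference of Macroh2a3 was 0.15 and was not called (limma, adjusted p = 0.0714). The testis-type H2al2a and H2ap were not called with either treatment.

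The genes for the 2 forms of H2A.Z, a variant found at promoters, changed unequally. H2az2 read 10.26, 10.25 and 10.32 untreated, 11.25, 11.28 and 11.24 with TSA and 11.41, 11.39 and 11.35 with butyrate. All treated arrays were above all untreated arrays, and H2az2 rose by 0.98 ± 0.04 with TSA (1.98-fold, adjusted p = 6.06e-08) and by 1.11 ± 0.04 with butyrate (2.16-fold, adjusted p = 1.72e-08). H2az1 read 13.04, 13.01 and 13.04 untreated, 13.04, 13.04 and 13.03 with TSA and 12.72, 12.76 and 12.72 with butyrate. The TSA and untreated arrays overlapped, at a difference of 0.003 ± 0.04 (adjusted p = 0.969), and all butyrate arrays were lower, by -0.30 ± 0.04 (adjusted p = 0.000143). The difference H2az2 minus H2az1 within an array is not moved by a constant shift of that array, such as the spike-in scales. It was -2.76 ± 0.03 untreated, -1.77 ± 0.01 with TSA and -1.35 ± 0.03 with butyrate (log2, SD, n = 3). It was higher by 0.98 with TSA and by 1.40 with butyrate, with no overlap (exact permutation test, two-sided, p = 0.1 for each, the smallest that 3 against 3 arrays can give). This pair was picked after its values had been seen. The other probe set of H2az1 alone differed by -0.007 with TSA and by -0.26 with butyrate, the latter called. The 2 probe sets annotated to H2az1 and Gm8203, and not to H2az2, differed by -0.03 and 0.03 with TSA. With butyrate they differed by -0.30 and -0.11, of which the -0.30 was called.

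Windows of the H2A.Z pair are printed because the genes share a product family and changed unequally, at chr11:6444394-6444693 (minus strand) for H2az2 and chr3:137864237-137864536 (plus strand) for H2az1, with capitals as above.
H2az2: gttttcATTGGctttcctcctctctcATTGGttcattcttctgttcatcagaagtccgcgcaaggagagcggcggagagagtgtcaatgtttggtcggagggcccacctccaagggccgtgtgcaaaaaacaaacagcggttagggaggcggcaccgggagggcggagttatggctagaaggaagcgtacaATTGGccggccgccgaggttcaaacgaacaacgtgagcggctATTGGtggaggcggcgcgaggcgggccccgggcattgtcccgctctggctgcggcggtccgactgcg
H2az1: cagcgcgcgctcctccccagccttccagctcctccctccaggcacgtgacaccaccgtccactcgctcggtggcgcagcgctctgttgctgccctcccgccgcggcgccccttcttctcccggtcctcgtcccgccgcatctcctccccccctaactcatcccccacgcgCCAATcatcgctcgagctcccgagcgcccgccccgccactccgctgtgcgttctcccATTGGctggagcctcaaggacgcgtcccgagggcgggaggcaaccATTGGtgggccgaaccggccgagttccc
Both windows held several CCAAT matches, at -244, -224, -59 and -17 in H2az2 and at -80, -23 and 23 in H2az1. None of the other capitalised motifs was found in either window.

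All 6 measured chaperones of H3 and H4 were called with TSA: 5 rose and Daxx fell. Calls were common with TSA: 26.3% of all genes rose and 21.0% fell, and 39.4% and 30.8% of those above the median level. With butyrate 3 of the 6 rose and the others were not called, where 33.6% of all genes rose and 24.8% fell. Asf1a, which hands H3-H4 to the deposition factors, read 9.24, 9.38 and 9.37 untreated, 10.23, 10.21 and 10.20 with TSA and 9.76, 9.73 and 9.75 with butyrate. The butyrate arrays lay between the other groups, without overlap. The rise was 0.88 ± 0.05 with TSA (1.84-fold, adjusted p = 2.61e-07) and 0.41 ± 0.05 with butyrate (1.33-fold, adjusted p = 5.31e-05). On the hybridization and poly-A spike-in scales the butyrate change of Asf1a was -0.004 and 0.10, neither called, while the TSA rise was 0.84 and 0.87. The difference butyrate minus TSA was -0.47 (adjusted p = 0.000119). A second, dim probe set of Asf1a, at 4.38 untreated, rose by 0.59 with TSA and 0.56 with butyrate. Its difference between the treatments was -0.03 and was not called (limma, adjusted p = 0.871).

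Chaf1b, a subunit of the CAF-1 complex that loads H3-H4 behind the replication fork, read 5.88, 5.95 and 6.29 untreated, 6.97, 7.22 and 7.28 with TSA and 6.92, 7.02 and 7.02 with butyrate. All treated arrays were above the untreated ones, and the treatments overlapped. Chaf1b rose by 1.12 ± 0.11 with TSA (2.18-fold, adjusted p = 1.16e-05) and 0.95 ± 0.11 with butyrate (1.93-fold, adjusted p = 3.45e-05). Asf1b, the form of Asf1 tied to dividing cells, rose by 0.28 ± 0.05 with each treatment; on the spike-in scales its butyrate change was -0.14 and -0.04, neither called. Nasp, which holds the soluble pool of H3-H4, rose by 0.32 ± 0.06 with TSA (adjusted p = 0.00172) and differed by -0.14 with butyrate (adjusted p = 0.0886). On the poly-A spike-in scale the TSA difference of Nasp was not called (limma, adjusted p = 0.23). Its other, dim probe set differed by 0.04 with TSA (limma, adjusted p = 0.739). Hira, which deposits H3.3 in genes, rose by 0.44 ± 0.10 with TSA and differed by 0.23 with butyrate (adjusted p = 0.0697), but its other 2 probe sets were not called with either treatment. Daxx, which deposits H3.3 at repeats, fell by 0.27 ± 0.08 with TSA (adjusted p = 0.0163) and differed by -0.20 with butyrate (adjusted p = 0.0539). Without the third TSA array the TSA fall of Daxx was not called, and without the first untreated array Daxx and Nasp were both called lower with butyrate, as Nasp was without the third butyrate array.

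Among the 4 chaperones of H2A and H2B or of broader action, 2 rose with TSA, and 3 rose and 1 fell with butyrate. The shares of all genes were 26.3% and 21.0% with TSA, and 33.6% and 24.8% with butyrate. Nap1l4, an H2A-H2B carrier, rose by 0.20 ± 0.05 and 0.34 ± 0.05. Supt16, the large subunit of FACT, which opens nucleosomes for polymerases, rose by 0.32 ± 0.05 and 0.16 ± 0.05, while its other, dimmer probe set was not called. On the hybridization and poly-A scales the butyrate changes were -0.08 and 0.03 for Nap1l4, neither called, and -0.25, called, and -0.15, not called, for Supt16. Set, which binds histones and inhibits their acetylation, read 11.03, 11.02 and 10.92 untreated, 10.87, 10.88 and 10.84 with TSA and 10.50, 10.40 and 10.63 with butyrate. All butyrate arrays were lowest. The butyrate fall was -0.48 ± 0.06 (adjusted p = 8.99e-05), the TSA difference -0.13 ± 0.06 (adjusted p = 0.123), and the other 2 probe sets of Set fell by 0.64 and 0.41 with butyrate. Nap1l1, the H2A-H2B carrier of most cells, rose by 0.22 ± 0.05 with butyrate (-0.20, called, and -0.09, not called, on the spike-in scales) and differed by 0.03 with TSA, but its probe sets disagreed: the others ranged from -0.50 to 0.01 with TSA and from -0.30 to 0.24 with butyrate.

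Compared directly, butyrate arrays were higher than TSA arrays for 8 of the 30 members and lower for 5, where 15.9% of all genes were higher and 20.0% lower. Of the histones 6 were higher (H1f2, H2aw, H2ac19, H2bc22, H2ax and Macroh2a3) and 1, H2az1, was lower. Of the chaperones Nap1l1 and Nap1l4 were higher, by 0.19 and 0.14, and Asf1a, Nasp, Set and Supt16 were lower, by -0.47, -0.46, -0.35 and -0.16. On the hybridization spike-in scale 2 members were higher and 18 lower, with 0.815% and 77.8% of all genes, and on the poly-A scale 0 were higher and 7 lower, with 0.274% and 24.4% of all genes. The differences of H2ac19, H2ax, Macroh2a3, Nap1l1 and Nap1l4 were below 0 on both spike-in scales. That of H1f2 was called on neither spike-in scale. On the deposited scale the call of Nap1l4 was lost under the replicate block, in the fit of these groups alone and without any 1 of 7 arrays (all but the first and second untreated). That of Nap1l1 was lost without TSA array 1 or butyrate array 1 or 3, and that of Supt16 without TSA array 2 or butyrate array 1 or 2.

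**Figure D4:**
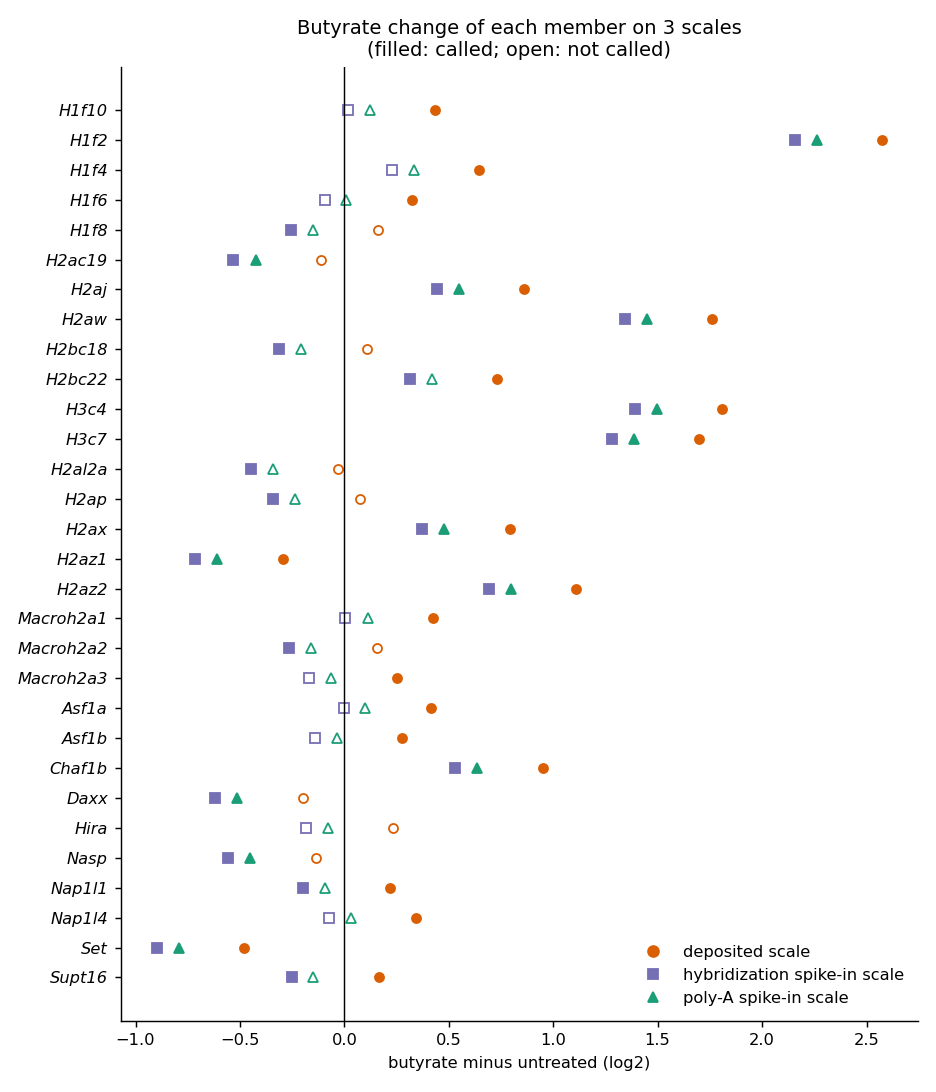
Difference butyrate minus untreated (log2) of each of the 30 genes on the deposited scale and on each spike-in scale. H1f2 stayed above 2 on all 3 scales, at 2.58, 2.16 and 2.26, while Asf1a moved from 0.41 to -0.004 and 0.10.

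Other genes that serve histone supply moved in both directions on the deposited scale. With TSA the other chaperones and remodelers rose more often than they fell. With TSA 26.3% of all genes rose and 21.0% fell, and 39.4% and 30.8% of those above the median level. With butyrate these shares were 33.6% and 24.8%, and 37.2% and 38.7%. Of 18 measured genes for histone mRNA processing and transcription, 7 rose and 6 fell with TSA, and 5 rose and 7 fell with butyrate (median 0.09 and 0.002). Slbp, which binds the histone mRNA stem-loop, rose by 0.26 ± 0.04 and 0.35 ± 0.04, and Casp8ap2, a protein of the histone locus body, rose by 0.47 ± 0.07 with each. The 0.42 shift of the hybridization scale turns the sign of the butyrate differences of Slbp and of Rbbp4, the latter a histone-binding subunit of CAF-1. The same shift is nearly as large as the butyrate rise of Casp8ap2. Of the subunits of the CCAAT-binding factor NF-Y, Nfyc changed by -0.91 ± 0.06 and -0.75 ± 0.06 and Nfyb by 0.44 ± 0.10 and 0.56 ± 0.10. Nfya, the remaining subunit, fell by 0.22 ± 0.06 with TSA and differed by 0.04 with butyrate (adjusted p = 0.598). Of 29 other chaperones and remodelers, 14 rose (48.3%) and 4 fell (13.8%) with TSA. With butyrate 11 rose (37.9%) and 10 fell (34.5%), and the medians were 0.13 and -0.05. Rbbp4 rose by 0.49 ± 0.04 and 0.38 ± 0.04, and Tspyl1, of the Nap1 family, by 1.07 ± 0.08 and 0.996 ± 0.08. Genes of the SRCAP complex, which deposits H2A.Z, moved in both directions. Srcap changed by -1.06 ± 0.17 and -1.07 ± 0.17 and Znhit1 by -0.51 ± 0.05 and -0.95 ± 0.05, and Vps72 differed by -0.23 with TSA (adjusted p = 0.0948) and fell by 0.47 ± 0.10 with butyrate. Ruvbl1 rose by 0.37 ± 0.06 with TSA and fell by 0.26 ± 0.06 with butyrate, and Ruvbl2 rose by 0.73 ± 0.07 and 0.21 ± 0.07, the latter below 0 after the 0.42 shift of the hybridization scale. Of 32 genes of S phase and cell division, 12 rose and 10 fell with TSA, and 11 rose and 11 fell with butyrate (median 0.06 and 0.01): Cdt1, which licenses replication origins, rose by 0.71 and 0.77, and the proliferation marker Mki67 fell by 0.55 and 0.65.

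**Figure D5:**
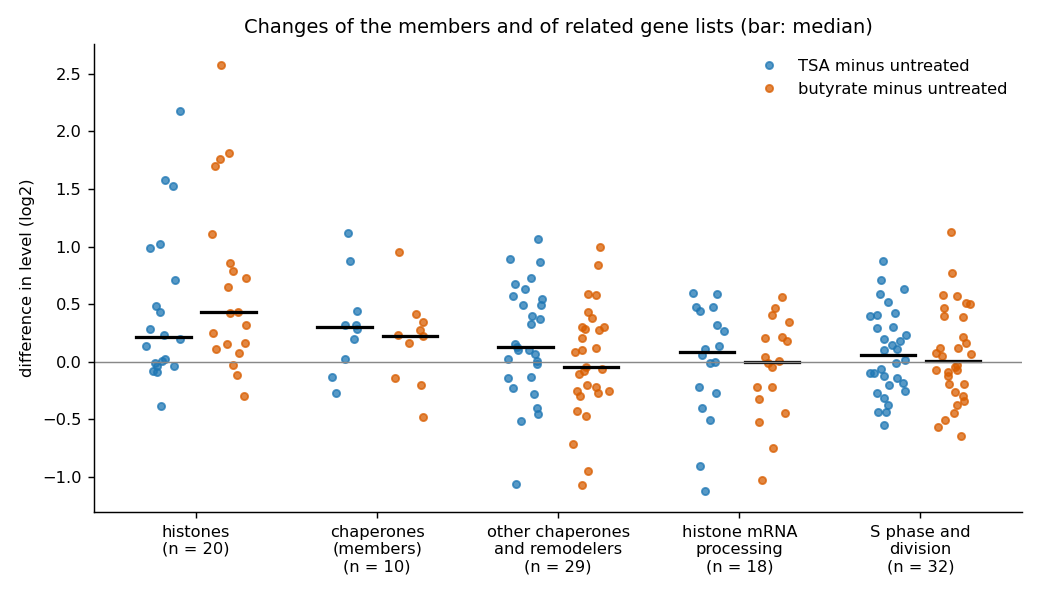
Differences in level (log2) with TSA (blue) and butyrate (orange), 1 point per gene and a black bar at the median, for the 20 histones, the 10 chaperones and the 3 related gene lists. The medians were 0.22 and 0.43 for the histones and 0.30 and 0.23 for the chaperones, and points lay on both sides of 0 in every list.

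The labelled cell type was checked with markers. The 14 dendritic cell markers averaged 9.82 to 9.87 untreated, 9.47 to 9.49 with TSA and 9.38 to 9.46 with butyrate, and their untreated levels ran from 4.93 for Itgae, below the 25th percentile of genes, to 14.39 for Cd74. Of these 8 fell with TSA, and 9 fell and 3 rose with butyrate. The mean over 7 neutrophil markers was 11.65 to 11.73 untreated, 10.95 to 11.05 with TSA and 11.26 to 11.28 with butyrate, and 6 erythroid markers averaged 8.79 to 8.85, 8.35 to 8.41 and 8.54 to 8.59. All 7 macrophage and monocyte markers fell with both treatments, from 8.76 to 8.88 on average to 7.82 to 8.00 and 7.36 to 7.58. The means of the B cell, T cell, NK cell and B16 melanoma markers lay between 5.51 and 6.98 on all arrays, with the highest untreated levels at 9.19 for Ms4a1 (B cell) and 8.52 for Mitf (B16). No marker was at 0, since RMA levels do not reach it. The Actb 3′ minus 5′ difference, a sign of RNA integrity, was 0.43 ± 0.07 untreated, 0.64 ± 0.04 with TSA and 0.68 ± 0.04 with butyrate. The part of cell mixture and RNA quality in the histone changes was not tested.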

How the data were processed

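RNA of 9 samples was read on Affymetrix arrays. The deposited values are log2 levels of 22690 probe sets, made with RMA (background correction, quantile normalization and median polish) per the submitters' processing notes; no source used here gives its program, version or probe definitions. RMA compresses changes of dim genes, and its quantile step sets every array to nearly the same distribution, with medians of 6.70 to 6.75. The SD over probe sets was still narrower on butyrate arrays (2.25 to 2.27) than on TSA (2.29 to 2.31) or untreated ones (2.30 to 2.32). Precision is limited by the 3 arrays a group.

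By the platform annotation, 20380 probe sets had 1 symbol, 691 had several, 1555 were unnamed and 64 were controls. The gene IDs of all 30 members were in the reference gene table (GRCm38.p6), and 50 probe sets with 1 symbol measured them. Group means of 12393 genes were fitted over all 9 arrays with limma 3.58.1 (lmFit, eBayes) in R 4.3.3, with 6 residual and 3.9 prior degrees of freedom. P-values were Benjamini-Hochberg adjusted over all genes, and a gene was called below 0.05. Probe sets with several symbols were fitted among 22626. The script was tested on simulated data.

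The members and lists were chosen with earlier results of these data known, and the lists are described by their counts alone. Every array is given for members called with a change of at least 0.5 against untreated and for chaperones with such a change in any comparison, and for others where a statement turns on them. The testis-type group was set apart after the annotation had been read.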

Additional observations from a re-analysis of the deposited data

How the results depend on the processing

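Under 18 alternatives, 9 of which each left out 1 array, 1427 of the 1572 values of single members kept their side of the threshold with no called sign turned, 57 fell below it, 51 passed it and 37 turned sign with a call before or after. Among the 1427, 56 turned sign with no call before or after, 27 of these on the spike-in scales; they are not listed. On the poly-A spike-in scale members called were 9 with TSA (9 higher, 0 lower), 13 with butyrate (8 and 5) and 7 between the treatments (0 and 7), with 2853 and 4217 genes called in all with TSA and butyrate. On the hybridization scale members with butyrate were 9 higher and 12 lower, and between the treatments 20 were called (2 and 18), with 9746 genes in all. The reported shifts of all genes, 0.03 with TSA and 0.09 with butyrate (log2 medians), became -0.002 and -0.33 on the hybridization scale and 0.03 and -0.23 on the poly-A scale.

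Members lower with TSA were 4 with the mean of all probe sets of a gene. Members lower with butyrate were 5 with a trended, robust variance and 5 of the 17 members above the median level, of which 12 were higher; there fewer genes were tested, and 39.9% of them rose and 40.6% fell. Without 1 array, members called ran from 16 to 19 with TSA (15 to 17 higher, 1 to 2 lower), from 20 to 23 with butyrate (18 to 20, 2 to 4) and from 11 to 14 between the treatments (7 to 9, 4 to 6), and all genes called from 5331 to 5865, 6559 to 7205 and 3397 to 4470.

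Signs that turned with a call before or after on the hybridization scale, butyrate against untreated, were those of H1f6 (-0.10), H1f8 (-0.26), H2bc18 (-0.31), H2ap (-0.34), Macroh2a2 (-0.26), Macroh2a3 (-0.17), Asf1a (-0.004), Asf1b (-0.14), Nap1l1 (-0.20), Nap1l4 (-0.075) and Supt16 (-0.25). Between the treatments on that scale they were H1f6 (-0.26), H2ac19 (-0.11), H2aj (-0.23), H2bc18 (-0.30), H3c7 (-0.27), H2al2a (-0.32), H2ap (-0.27), H2ax (-0.079), H2az2 (-0.26), Macroh2a3 (-0.12), Daxx (-0.31), Nap1l1 (-0.19) and Nap1l4 (-0.24). On the poly-A scale, butyrate against untreated, they were Macroh2a3 (-0.062), Asf1b (-0.035), Nap1l1 (-0.093) and Supt16 (-0.15), and between the treatments H2ac19 (-0.034), H2ax (-0.004), Macroh2a3 (-0.049), Nap1l1 (-0.12) and Nap1l4 (-0.17). Both scales are constant shifts per array, so they move all genes alike. Without the _x_at and _s_at probe sets, Nap1l1 was -0.33 with TSA and -0.11 with butyrate and Nasp 0.053 between the treatments, from a dim probe set; with the mean of all probe sets Nap1l1 was -0.15 with TSA.

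The replicate numbers did not pair the arrays: deviations of same-numbered arrays correlated from -0.12 to 0.21, and 3 of 9 arrays correlated best with their own number. With the replicate block, members called were 16 higher and 2 lower with TSA, 20 and 2 with butyrate and 8 and 5 between the treatments. Genes near the floor of the scale, H1f4, H1f6, H1f8 and Macroh2a3 among them, limit what a missing call can show.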
